A study of Mus musculus with 2 samples.

Results

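Fibroblast growth factor (FGF) signalling was followed through 66 genes of the 18193 that had a probe set naming 1 gene: the FGF ligands, their receptors and binding proteins, the Sprouty, Spred and Sef inhibitors (Sef is encoded by Il17rd), the dual-specificity phosphatases of the Dusp family and the Etv transcription factors. They were picked by a rule on gene symbols in the array's annotation, drawn up with earlier results of these data known, and were read by 136 probe sets. Etv1 was not among them, because its 3 probe sets also named Gm5454; the brightest of these had a signal of 40.1 without and 7.10 with CHIR99021. The samples were lung epithelium isolated from ICR mouse fetuses at embryonic day 11 and cultured in Matrigel, a gel of basement membrane proteins. Both cultures first had 4 days with FGF10 protein and CHIR99021, which blocks glycogen synthase kinase 3 and thereby activates canonical Wnt signalling. The epithelium was then fragmented, embedded again and given 2 more days with FGF10, either with CHIR99021 (present) or without it (absent), so the comparison is between continued exposure and withdrawal under a constant supply of FGF10. There was 1 array per condition. No spread between cultures could be measured, no test was possible, and every value below is a single measurement of 1 culture.

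FGF ligands bind receptor tyrosine kinases together with heparan sulfate and switch on the RAS-ERK cascade. ERK then raises the transcription of its own brakes, such as the Sprouty proteins and Dusp6, and of the transcription factors Etv4 and Etv5, so that these genes are widely used as readouts of the pathway. In the developing lung FGF10 is made by mesenchyme and acts on the IIIb form of Fgfr2 in the epithelium, where it drives budding.

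The MAS5 signals, in arbitrary units, were read against a background floor of 19.2 on the array without CHIR99021 and 12.7 on the array with it, set from 80 probe sets of olfactory and vomeronasal receptors. A probe set above the floor is called detected, and a gene detected on at least 1 array is called measured. A gene was called higher or lower only where its signal differed at least 2-fold after values below the floor had been raised to it. Of the genes detected on both arrays, 76.4% were dimmer with CHIR99021, and their median log2 ratio (present over absent) was -0.40. The ratio of 3' to 5' signal, a measure of RNA integrity and labelling, was 1.29 without and 3.18 with CHIR99021 for beta-actin and 0.737 and 1.62 for Gapdh. These values move with the condition, and their part in the results below was not tested. In the label check, all 10 lung epithelial markers were measured, and their summed signal was 48500 without and 28360 with CHIR99021. Of these 5 were lower as deposited and after loess, 4 after quantile normalization and 2 after median centring, and the median log2 ratio of the list was -0.995 as deposited. Epcam had 3846 and 3743 and Sftpc 8808 and 8500, and Cdh1, Foxa1 and Foxa2 were within 2-fold too, lower by 1.40-fold to 1.79-fold. Krt19 had 4030 and 278, and Krt8, Krt18 and Shh were lower by 2.21-fold to 2.45-fold. Nkx2-1, the lung identity factor, was at 52.0 and, under the floor, at 5.84. The part of this in the results below was not tested. The 16 mesenchymal markers summed to 548 and 452, with 8 of them, Pdgfra, Pdgfrb and Tbx4 included, below the floor on both arrays. Another 7 were detected on both, with Acta2 at 199 and 194, Col3a1 at 88.7 and 54.6 and Col1a2 at 63.8 and 49.3. Of 8 endothelial markers 5 were below it on both, Pecam1 and Cdh5 included, and the list summed to 206 and 108. The 5 blood markers with a probe set summed to 123 and 117 with Ptprc and Hba-a1 below the floor, and the 4 nerve markers to 50.1 and 46.5 with Sox10 and Tubb3 below it. Of the 4 mesothelial markers, Wt1 and Upk3b were below the floor on both arrays, while Msln was at 471 without and 4.84 with CHIR99021. Lrrn4 went the other way, at 6.36, under the floor, without and 14.8 with CHIR99021.

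Of the 66 members 49 were measured, 44 of them on both arrays, and 17 were detected on neither. With CHIR99021 present, 2 of the 49 were higher, against 1.90% of all 12917 measured genes, and 11 were lower, against 18.4%. The higher ones were Etv4 and Fgfr4. The lower ones were Fgf1, Fgf4, Fgf11, Fgfbp1, Fgfr3, Spry1, Dusp4, Dusp6, Dusp14, Dusp16 and Dusp18. The members' median log2 ratio was -0.48 and that of all measured genes -0.42. In RNA from a whole culture, fewer cells of a type and less RNA per cell cannot be told apart. Among the 25 members at a signal of 200 or more on the brighter array, 1 was higher and 8 were lower, and their median log2 ratio was -0.73, against -0.38 for all genes this bright. The share of all genes this bright that were called was 1.70% higher and 16.9% lower. These values for bright genes were read on the deposited scale only. Of the 8 lower ones, Spry1, Dusp6, Dusp14 and Dusp16 were within 2-fold after median centring, quantile normalization and loess. Scaling changed the count of calls. After median centring 4 members were higher and 4 lower (background 5.91% and 7.44%), after quantile normalization 4 and 4 (7.27% and 6.33%), and after loess 3 and 4 (6.03% and 7.29%). Fgf1, Fgfbp1, Fgfr3 and Dusp4 were the lower members under all of these scalings and Etv4 and Fgfr4 were higher under each.

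**Figure D1:**
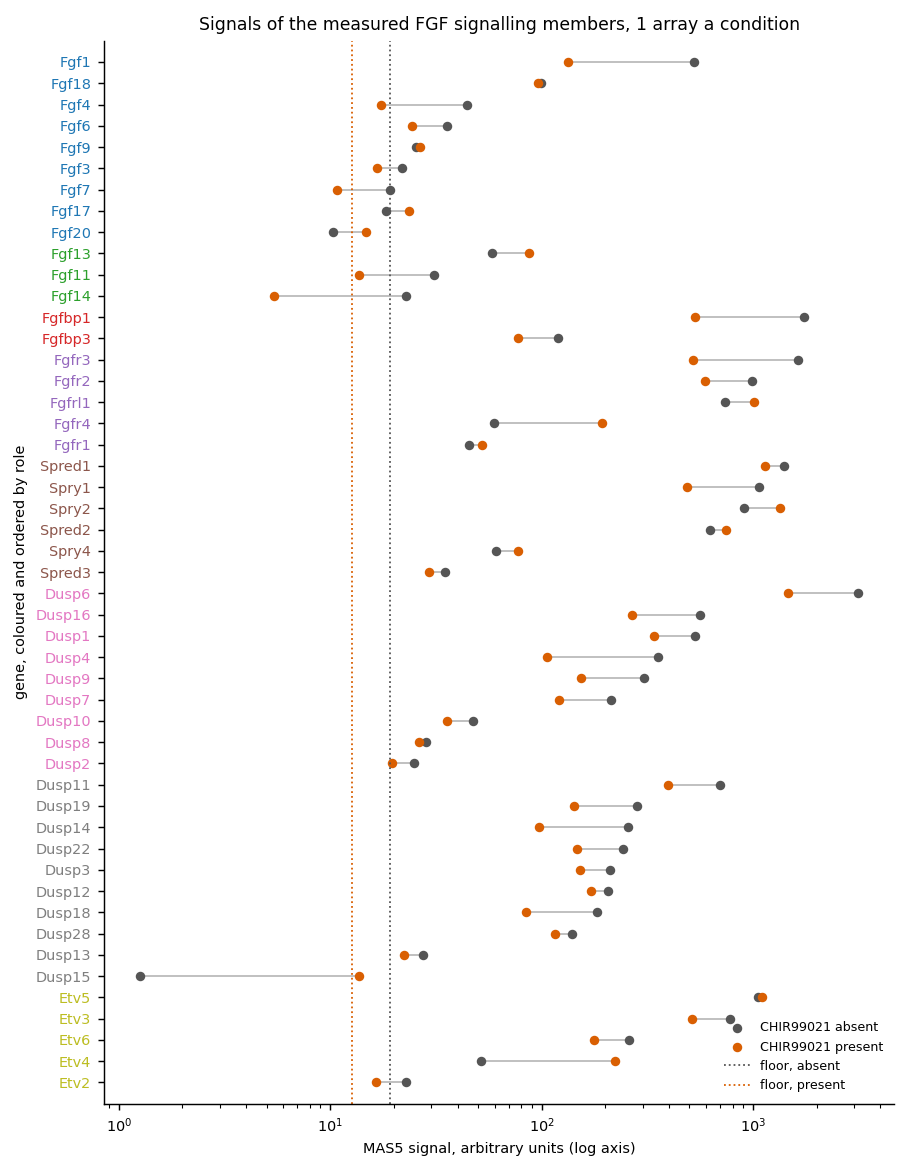
MAS5 signals of the 49 measured members on a log axis, 1 row per gene, coloured and ordered by role; each gene is shown by its brightest probe set, grey points are the array without CHIR99021, orange points the array with it, and dotted lines mark the background floors of 19.2 and 12.7. For Dusp6 the points lie at 3147 and 1465, and Etv4 and Fgfr4 are the members whose orange point lies at least 2-fold to the right of the grey one with both above the floor.

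**Figure D2:**
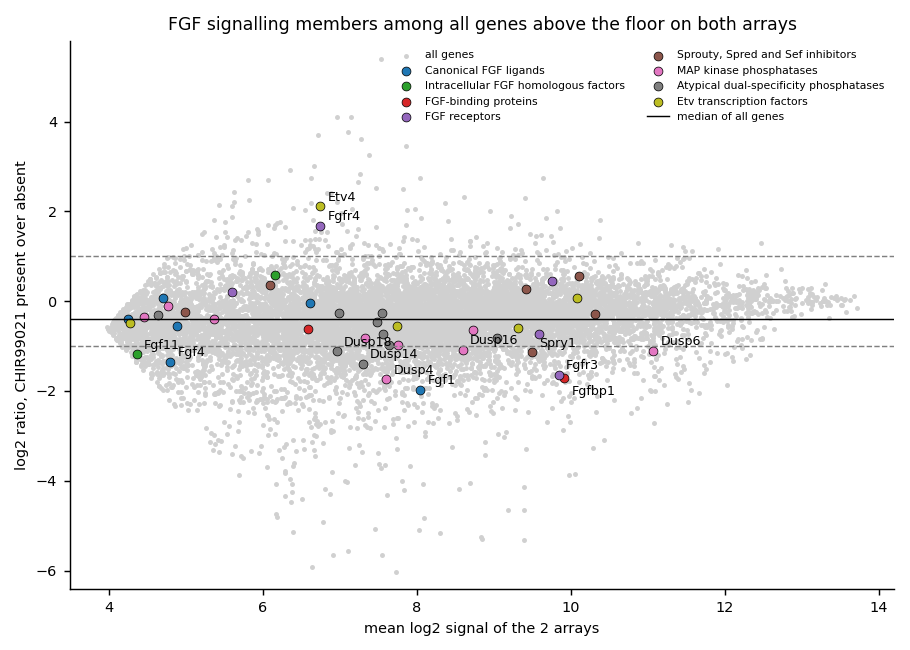
Log2 ratio (CHIR99021 present over absent) against the mean log2 signal for genes detected on both arrays; grey points are all genes, coloured points the members by role, dashed lines mark 2-fold and the solid line the median of all genes at -0.40. Members called higher or lower are named, and the other members lie between the dashed lines.

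RefSeq promoter sequences (assembly GRCm38.p6) were at hand for 50 of the 66 members and 10 of the 13 called ones, and 4 of them are shown: Fgfr4 from the higher and Dusp14 from the lower members, each of which holds an ETS core, and Dusp6 and Spry1, the lower members that are textbook ERK feedback genes. The 250 bases before the transcription start were searched on both strands for CCGGAA, a core bound by ETS factors such as Etv4, and for CTTTGA, a core bound by the TCF/LEF partners of beta-catenin; the letters of these cores do not overlap in the windows shown. Capitals mark CCGGAA, and CTTTGA is in none of the 4. The windows are chr13:55152568-55152817 on the plus strand for Fgfr4, chr11:84068358-84068607 on the minus strand for Dusp14, chr10:99262981-99263230 on the plus strand for Dusp6 and chr3:37639697-37639946 on the plus strand for Spry1, printed 5′ to 3′ towards the start.
Fgfr4: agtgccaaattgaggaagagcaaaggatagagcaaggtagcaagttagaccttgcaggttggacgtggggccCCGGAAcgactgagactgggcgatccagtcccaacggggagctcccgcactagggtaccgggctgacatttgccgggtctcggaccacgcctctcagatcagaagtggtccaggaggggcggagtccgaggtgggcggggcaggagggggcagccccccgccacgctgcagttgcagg
Dusp14: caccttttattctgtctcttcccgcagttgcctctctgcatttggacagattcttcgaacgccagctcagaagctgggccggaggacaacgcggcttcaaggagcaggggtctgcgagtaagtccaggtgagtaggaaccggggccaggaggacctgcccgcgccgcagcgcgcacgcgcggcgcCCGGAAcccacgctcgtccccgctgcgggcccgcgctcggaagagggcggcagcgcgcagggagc
Dusp6: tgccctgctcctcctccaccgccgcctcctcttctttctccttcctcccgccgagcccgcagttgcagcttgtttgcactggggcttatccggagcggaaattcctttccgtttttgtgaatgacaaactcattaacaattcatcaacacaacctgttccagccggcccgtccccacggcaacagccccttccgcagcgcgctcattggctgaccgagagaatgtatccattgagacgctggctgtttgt
Spry1: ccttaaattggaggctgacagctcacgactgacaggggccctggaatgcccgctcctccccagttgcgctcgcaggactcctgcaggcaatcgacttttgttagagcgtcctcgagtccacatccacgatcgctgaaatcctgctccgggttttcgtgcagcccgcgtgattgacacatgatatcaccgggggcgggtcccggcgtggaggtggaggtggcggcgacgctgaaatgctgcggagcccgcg
The match began 178 bases before the start in Fgfr4 and 65 bases before it in Dusp14. Across all 61 promoter windows of members CCGGAA was in 6 (9.84%), against 12.0% of 32851 windows of all genes, and CTTTGA was in 4 (6.56%), against 13.8%. Among the 11 windows of called members 2 held CCGGAA and 0 held CTTTGA. A match is a run of letters and not a shown binding site, and its absence from this window says nothing of binding elsewhere. The median GC content was 61.2% in the members' windows and 52.4% in all.

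Of the 15 canonical, secreted ligands 9 were measured, 2 were lower with CHIR99021 and 0 were higher, against 18.4% and 1.90% of all measured genes. After median centring, quantile normalization and loess 1 of the 9, Fgf1, was lower. Fgf10, the ligand supplied as protein in both media, gave 11.7 without and 6.39 with CHIR99021, below the floor on both arrays, as were Fgf2, Fgf5, Fgf8, Fgf16 and Fgf22. Fgf1, which binds all FGF receptors, was at 524 without and 133 with CHIR99021, 3.94-fold lower. Its other probe sets were at 470 and 79.7 and at 69.2 and 27.9, so that all 3 were at least 2-fold lower. Fgf18, a ligand of lung growth, was at 96.5 with CHIR99021 and nearly equal without it (log2 ratio -0.04). Fgf9, an epithelial and mesothelial ligand of the early lung, was near the floor at 25.4 and 26.6. Fgf4, known from the limb bud and the early embryo, had 44.4 without and 17.4 with CHIR99021, 2.55-fold lower, but its 3 other probe sets were below the floor on both arrays. The remaining measured ligands were dim. Fgf3 had 21.8 and 16.7, Fgf6 35.7 and 24.4, Fgf7 19.2 and 10.8, Fgf17 18.5 and 23.6, and Fgf20 10.4 and 14.7, in each case without and then with CHIR99021. Of these, Fgf7 was above the floor only without CHIR99021, and Fgf17 and Fgf20 only with it.

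The endocrine ligands Fgf15, Fgf21 and Fgf23, which act at a distance through Klotho co-receptors, were below the floor on both arrays, as were the co-receptor genes Kl and Klb. The FGF homologous factors stay inside the cell and do not act through the receptors as secreted FGFs do; they are known as regulators of sodium channels. Among them Fgf13 had 57.9 without and 87.2 with CHIR99021, which was within 2-fold as deposited (log2 ratio 0.59) and past it after median centring (1.07), quantile normalization (1.25) and loess (1.16). The other probe set of Fgf13 was below the floor on both arrays. Fgf11 had 31.1 and 13.7, just above the floor with CHIR99021, 2.27-fold lower, but its other probe set was below the floor on both arrays. Fgf14 had 22.7 and 5.42, the latter below the floor, and Fgf12 was below it on both.

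The FGF-binding proteins release ligands from the matrix and carry them to their receptors. Fgfbp1 was at 1749 without and 531 with CHIR99021, 3.29-fold lower, and it stayed past 2-fold under each scaling. Fgfbp3 had 119 and 77.5, within 2-fold.

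The receptor genes were divided. Fgfr3 was at 1623 without and 520 with CHIR99021, 3.12-fold lower. Its other probe set was at 127 without and 7.32 with CHIR99021, the latter under the floor, which bounds the difference at 10.0-fold or more. Fgfr2, the FGF10 receptor, had 989 and 595 by its brightest probe set, within 2-fold, and 382 and 78.7 by another, 4.85-fold lower. Its dimmest probe set was near the floor, at 20.3 and 9.24. The probe sets were not assigned to the IIIb or IIIc form. Fgfr4 went the other way, at 59.8 without and 192 with CHIR99021, 3.22-fold higher. That call rests on 1 probe set. Of the 4 others, 3 had 26.9 and 31.9, 22.6 and 20.0, and 0.656 and 28.3 without and with CHIR99021, and 1 was below the floor on both arrays. Over the 4 probe sets detected on at least 1 array the median log2 ratio was 0.40, within 2-fold. Fgfr1, the main receptor of mesenchyme, was dim, at 45.4 and 52.2. Fgfrl1, a receptor without a kinase domain, had 739 without and 1011 with CHIR99021, and its other probe set 259 and 445, so that both were brighter on the array that was dimmer for most genes, though within 2-fold.

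The feedback inhibitors were also divided. Sprouty proteins are induced by ERK and block the path from the receptor to RAS. Spry1 was at 1066 without and 484 with CHIR99021, 2.20-fold lower. Spry2 had 904 and 1338 by its brightest probe set, within 2-fold, while its other, dimmer probe set had 72.6 and 19.2, 3.78-fold lower. The probe sets of Spry2 thus disagreed in sign. Spry4 was at 60.5 and 77.5, within 2-fold, and its 3 other probe sets were below the floor, as was Spry3. Spred proteins hold RAS in check through neurofibromin. Spred1 was detected on both arrays by 6 probe sets, with 1404 without and 1144 with CHIR99021 at the brightest, and the log2 ratios of these probe sets ran from -1.16 to -0.30. Spred2 had 622 and 748 by its brightest probe set, but 137 and 54.9, 81.8 and 32.4, and 46.8 and 32.3 by the others, whose log2 ratios were -1.31, -1.34 and -0.53. Spred3, at 34.7 and 29.2, differed little. Il17rd, which encodes the membrane inhibitor Sef, was below the floor on both arrays by each of its 2 probe sets. Of the 6 measured inhibitors 1 was lower and 0 were higher as deposited, against 18.4% and 1.90% of all measured genes. After median centring 0 were lower and 1 was higher (Spry2), against 7.44% and 5.91%. After quantile normalization 0 were lower and 1 was higher (Spry4), against 6.33% and 7.27%.

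Dusp genes of the MAP kinase phosphatase class remove phosphates from ERK, JNK and p38. All 9 that were measured were dimmer with CHIR99021, as were 76.4% of all genes detected on both arrays, and 3 were at least 2-fold lower, against 18.4% of all measured genes. Their median log2 ratio was -0.82, against -0.42 for all measured genes. After loess the median was -0.29, against 0.044 for all measured genes, with 6 of 9 dimmer (46.5% of all genes) and 1 lower (7.29%). Dusp6, the cytoplasmic ERK phosphatase most used as an FGF readout, was at 3147 without and 1465 with CHIR99021, 2.15-fold lower. Its log2 ratio of -1.10 became -0.63 after median centring, -0.83 after quantile normalization and -0.89 after loess, and it was read by 1 probe set. Dusp4, a nuclear phosphatase induced by ERK, had 355 and 106, 3.34-fold lower, and its log2 ratio stayed at -1.15 or below under every alternative run. Dusp16, which acts mainly on JNK, had 564 and 267, 2.11-fold lower, but 41.4 and 30.9 by its other probe set. The cytoplasmic relatives of Dusp6 were within 2-fold by their brightest probe sets. Dusp9 had 305 without and 154 with CHIR99021, and its other probe sets had log2 ratios of -1.07 and -1.26. Dusp7 had 213 and 121 by the brightest of 3 probe sets, and 100.2 and 42.6, 2.35-fold lower, by another. Dusp1, an immediate-early phosphatase, had 531 and 338, within 2-fold. Dusp2, Dusp8 and Dusp10 were dim, with 24.9 and 19.6, 28.3 and 26.4, and 47.6 and 35.8 in that order, and Dusp5, a nuclear ERK phosphatase, was below the floor on both arrays.

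The atypical dual-specificity phosphatases are small enzymes without the MAP kinase docking domain, and many act on other substrates. Of 14 genes 10 were measured, 2 were lower (18.4% of all measured genes were) and 0 were higher, and after loess none of the 10 was past 2-fold in either direction. Dusp14 had 255 without and 97.1 with CHIR99021, 2.62-fold lower. Dusp18 had 184 and 84.8, 2.16-fold lower. Its other probe set had 73.5 and 6.75, the latter under the floor, which bounds the difference at 5.78-fold or more. Dusp11, an RNA phosphatase, had 700 and 395, within 2-fold. Dusp3 had 210 and 151 by its brightest probe set, within 2-fold, but 83.6 and 25.9 by another, 3.23-fold lower. Its dimmest probe set had 42.3 and 11.3, the latter under the floor, which bounds the difference at 3.32-fold or more. Dusp12, Dusp13, Dusp19, Dusp22 and Dusp28 lay between log2 ratios of -0.98 and -0.27 by their brightest probe sets. Dusp15 was above the floor only with CHIR99021, at 13.7, and Dusp21, Dusp23, Dusp26 and Dusp27 were below it on both arrays.

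Etv4 and Etv5 belong to the PEA3 group of ETS factors, which FGF signalling induces in the lung bud tip. Etv4 had the largest difference among the members by their brightest probe sets, at 51.6 without and 223 with CHIR99021, 4.32-fold higher. Its other probe set had 58.4 and 62.5, so the call rests on 1 of 2 probe sets. Etv5 was nearly equal, at 1050 and 1105, by its brightest probe set. Its other probe sets had 210 and 70.8, and 92.5 and 42.8, at least 2-fold lower in both cases. Etv5, like Spry2, therefore had probe sets that disagreed in sign. Etv3, a repressor of the ETS family, had 779 and 516 by its brightest probe set, within 2-fold, but 590 and 236 by another, 2.50-fold lower. Etv6, a repressor known from blood formation, had 260 and 177, and Etv2, a factor of endothelial and blood progenitors, 22.9 and 16.4, both within 2-fold.

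**Figure D3:**
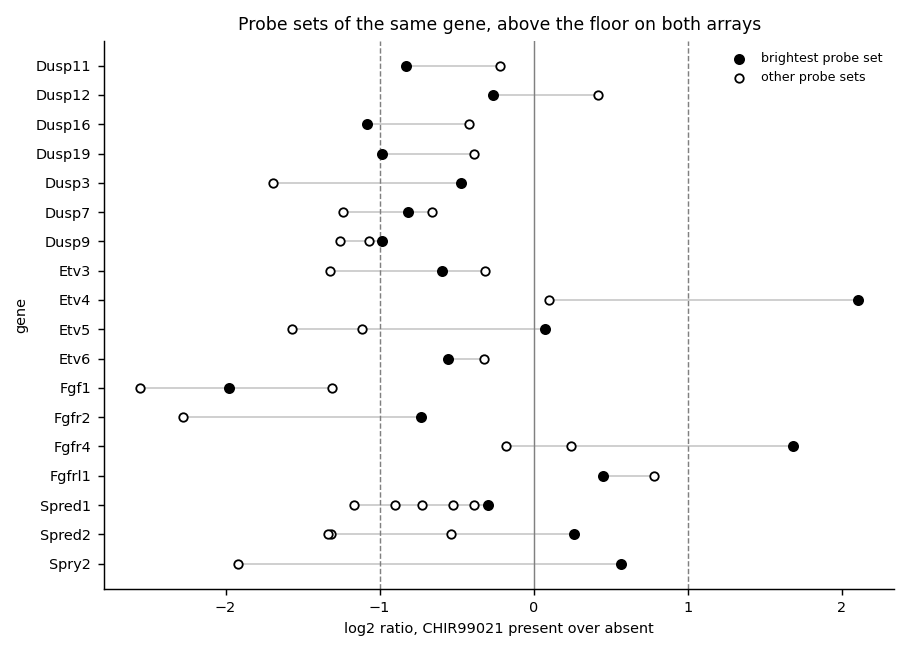
Log2 ratios (CHIR99021 present over absent) of every probe set detected on both arrays, for the 18 members with 2 or more such probe sets; filled points are the brightest probe set, open points the others, and dashed lines mark 2-fold. Points of Dusp3, Etv3, Etv4, Etv5, Fgf1, Fgfr2, Fgfr4, Spred2 and Spry2 spread over more than 1 log2 unit, and those of Fgf1 are all at least 2-fold lower.

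Agreement between probe sets limited what could be said of single members. For 18 members with several probe sets detected on both arrays, the SD of log2 ratios between probe sets of a gene was 0.71, against 0.56 over 5335 genes. For 9 of the 18 the probe sets spanned more than 1 log2 unit, and for 5 (Dusp12, Etv5, Fgfr4, Spred2 and Spry2) they disagreed in sign. Over all 74 such probe sets of members, 60 were dimmer with CHIR99021 and the median log2 ratio was -0.58. These spreads measure differences between probes and not between cultures. Of the called members, Dusp4, Dusp6, Dusp14, Fgfbp1 and Spry1 had 1 probe set each and so no check of this kind. Dusp18, Fgf4, Fgf11 and Fgfr3 had more, but only 1 each was detected on both arrays, so they had no such check either.

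**Figure D4:**
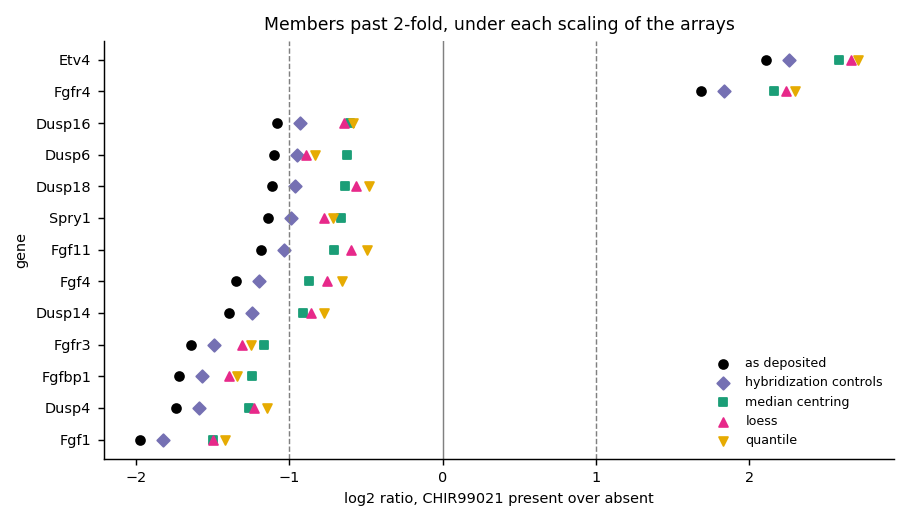
Log2 ratios (CHIR99021 present over absent) of the 13 members called higher or lower, under the deposited scale and 4 other scalings of the arrays; dashed lines mark 2-fold. Etv4, Fgfr4, Fgfr3, Fgfbp1, Dusp4 and Fgf1 stay past 2-fold under all 5, while the other 7 move within it under at least 3.

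The genes around the members in the pathway were described from lists of their own. Over all measured genes 18.4% were lower and 1.90% higher as deposited, with a median log2 ratio of -0.42, the background for each list below. That median was 0.052 after median centring, 0.12 after quantile normalization and 0.044 after loess. Of 12 measured adaptors and co-receptors 3 were lower and 0 higher, with a median log2 ratio of -0.65. The adaptor gene Frs2 had no probe set naming 1 gene. Flrt3, a membrane protein that binds FGF receptors, had 2232 without and 498 with CHIR99021, 4.49-fold lower, Shc1, an adaptor, was 2.39-fold lower, and Gab1, a docking protein, 2.13-fold lower. After loess only Flrt3 of these 3 was past 2-fold. Among 19 measured genes of heparan sulfate, the co-factor of ligand binding, 2 were lower and 1 was higher, with a median of -0.15. With 2 lower in each case, 3 were higher after median centring, 6 after quantile normalization and 4 after loess, and the median was 0.32, 0.43 and 0.35. The shares of all measured genes, in the same order, were 5.91%, 7.27% and 6.03% higher and 7.44%, 6.33% and 7.29% lower. Gpc4, a glypican, was 3.31-fold lower and Sdc1, the main syndecan of epithelia, 2.87-fold lower (5874 and 2047). Sulf1, an enzyme that trims sulfate groups and dampens FGF signalling, gave 16.9, under the floor, without CHIR99021 and 51.2 with it, which bounds the difference at 2.67-fold or more. Its relative Sulf2 had 335 and 604, within 2-fold as deposited and past it after median centring. In the RAS-ERK cascade 1 of 12 measured genes was lower, Map2k1, the kinase MEK1, at 777 and 285 (2.73-fold), while Map2k2, MEK2, had 547 and 461, and the median of the cascade was -0.31. Map2k1 was within 2-fold after median centring (log2 ratio -0.97) and quantile normalization, and the median of the cascade became 0.16, 0.17 and 0.13 after median centring, quantile normalization and loess. Of the other MAP kinases and their activators 1 of 10 was lower, the dim Mapk12, at 31.5 without and 11.1 with CHIR99021, the latter under the floor, which was within 2-fold after median centring, quantile normalization and loess. The median of that list was -0.49.

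Among 16 measured genes that respond to ERK in many cells 6 were lower and 0 were higher, against 18.4% and 1.90% of all measured genes. Plaur, the urokinase receptor, had 461 without and 50.1 with CHIR99021, 9.20-fold lower. Ier3, an early response gene, had 2578 and 355, 7.26-fold lower. Fos, a subunit of AP-1, was 6.95-fold lower (368 and 53.0) and Ereg, a ligand of the EGF receptor family, 6.56-fold lower (760 and 116). Myc was 6.32-fold lower and Junb, another AP-1 subunit, 2.02-fold lower. Other immediate-early genes differed less. Egr1 had 542 and 304, Ier2 1225 and 1068, and Jun 260 and 449. The list's median log2 ratio was -0.70, against -0.42 for all measured genes. After loess 5 of the 16 were lower and 1, Jun, was higher (background 7.29% and 6.03%). These genes also answer to signals other than FGF.

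**Figure D5:**
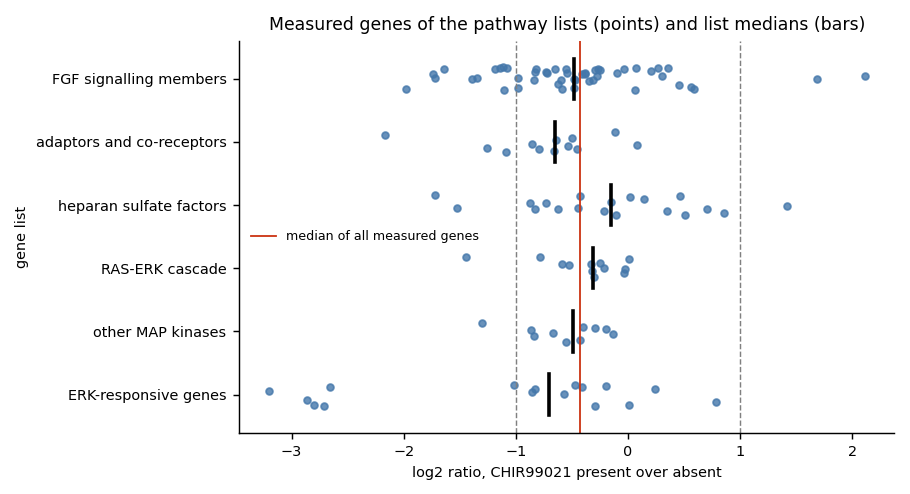
Log2 ratios (CHIR99021 present over absent) of the measured genes of the FGF signalling members and of 5 further pathway lists, 1 point per gene by its brightest probe set; black bars are list medians, the red line the median of all measured genes at -0.42, and dashed lines mark 2-fold. The ERK-responsive genes have 5 points below -2, the members have 2 points above 1.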

How the data were processed

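The authors deposited 1 linear signal intensity for each probe set, made with MAS5 per the submitters' processing notes, without a version or scaling target; 100 ng of total RNA was labelled with a 3' in vitro transcription kit, per the labels' protocols. All 45101 values were positive on each array, and the 2% trimmed means were 204 without and 151 with CHIR99021, so a common scaling over all probe sets had not been applied. No detection call was used here. Probe sets were named from the platform annotation, and all 66 member symbols had the same symbol in RefSeq GRCm38.p6. Each gene was read by the brightest (mean log2 signal over the arrays) of its probe sets that name 1 gene. The floor was the 95th percentile of 80 receptor probe sets per array, and values below it were raised to it, so such ratios are bounds. Log2 ratios are present over absent. With 1 array per condition the number of arrays limits the precision, and no test, SE or p-value was computed. All measured members may be named; other lists are given by counts and up to 4 called genes, and further genes of these lists (Map2k2, Sulf2, Egr1, Ier2, Jun, Junb, Myc) were chosen after their values were seen. The members and lists were chosen with earlier results of these data known. Alternatives were median centring, quantile, loess (span 0.4) and scaling on 18 hybridization controls, other floors or none, an offset of 16, the median over probe sets, leaving out _x_at and _s_at probe sets, and thresholds of 1.5- and 3-fold. The procedure was tested on simulated data with planted changes far larger than 2-fold in genes well above the floor. That run therefore did not test calls near 2-fold or near the floor. Python 3.11.15, numpy 2.4.6, pandas 2.3.3, statsmodels 0.14.6 and matplotlib 3.10.9 were used.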

Additional observations from a re-analysis of the deposited data

How the results depend on the processing

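The members called at least 2-fold higher numbered 2 as deposited, 4 after median centring, after quantile normalization and without a floor, and 1 with the median over probe sets. In that order, 1.90%, 5.91%, 7.27%, 6.67% and 1.46% of all genes were higher. Counts without a floor are of all 66 members, and the other counts here are of 49. Those called lower numbered 11 as deposited and 4 after median centring, quantile normalization and loess. The shares of all genes lower were 18.4%, 7.44%, 6.33% and 7.29% in that order. Scaled on hybridization controls, 7 members were lower, against 1811 of all 12917 measured genes. Lower members numbered 19 without a floor (25.3% of all genes), 22 at a 1.5-fold threshold (38.7%) and 4 at 3-fold (6.29%). The median log2 ratio of the members changed sign from -0.48 to 0.15 after quantile normalization and 0.044 after loess, where the median of all measured genes was 0.12 and 0.044. No called member changed sign under any of the 10 alternatives run for single genes. Etv4, Fgf1, Fgfbp1, Fgfr3 and Dusp4 stayed past 2-fold under all 10, and Fgfr4 under all but the median over probe sets. Spry1 and Dusp6 were within 2-fold under the 4 other scalings. Signals near the floor, such as those of Fgf4 and Fgf11, are limited by background. No paired analysis was possible because each condition had 1 array.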

Other observations

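Among the 18 members with several probe sets detected (above the floor) on both arrays, the brightest probe set had a higher log2 ratio than the median of the others in 11 (61.1%), with a median difference of 0.20. Over all 5335 such genes the share was 67.2% and the median difference 0.22. In 9 members (Dusp3, Dusp7, Dusp9, Etv3, Etv5, Fgfr2, Spred1, Spred2 and Spry2) the brightest of these probe sets was within 2-fold while at least 1 other was at least 2-fold lower with CHIR99021.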
